A study of Mus musculus with 7 samples.

Results

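Integrins are cell surface receptors, laminins are the sheet-forming proteins of basement membranes, and a small set of linkers joins them to each other and to collagen. This account follows the 42 genes of the deposited table, of 16167 in all, whose symbols name an integrin alpha or beta subunit, a laminin chain, a nidogen (Nid1, Nid2), nephronectin (Npnt), a Fraser complex protein (Fras1, Frem1, Frem2), perlecan (Hspg2) or agrin (Agrn). The rule uses names only. The genes comprise 15 integrin alpha subunits, 8 integrin beta subunits, 11 laminin chains and 8 linkers and proteoglycans. RNA came from pairs of whole kidneys of E15.5 mouse embryos, in mid-nephrogenesis. The 4 mutant libraries are titled Six2-Cre; Irx3/5(loxP/loxP): both copies of the neighbouring Iroquois genes Irx3 and Irx5 are floxed, and the Cre is driven by Six2, a gene of nephron progenitors. The 3 control libraries are littermates titled Irx3/5(loxP/+), with a genotype label of WT. All groups therefore carry a floxed allele. No control title names a Cre, so deletion and Cre transgene cannot be told apart. The number of embryos behind each library is not stated. All p-values thus rest on the variation among these libraries, which may be partly technical.

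An integrin is a pair of one alpha and one beta subunit that grips matrix proteins outside the cell and the actin or keratin cytoskeleton inside it. A laminin is a trimer of one alpha, one beta and one gamma chain, which nidogens and perlecan tie to the type IV collagen network. In the developing kidney, nephronectin on the ureteric bud is the ligand for the integrin made of Itga8 and Itgb1 on the surrounding mesenchyme, and the Fraser complex holds nephronectin in the bud's basement membrane. In glomeruli, podocytes stand on a basement membrane rich in the Lama5 chain and hold it with the integrin made of Itga3 and Itgb1.

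Read totals per library, worked back from the deposited values, ran from 40511920 in control replicate 3 to 69028943 in control replicate 1. Irx3 ran from 12.7 to 14.7 FPKM (fragments per kilobase of exon, scaled to the library total) among controls and 3.98 to 6.75 FPKM among mutants (log2 fold change -1.16, SE 0.149; limma adjusted p = 0.0145; exact permutation p = 0.0286, two-sided, the smallest that 35 splits allow). Irx5 was at 1.36 to 1.59 FPKM in controls, against 0.895 to 2.05 FPKM in mutants, with overlapping groups (exact permutation p = 0.943, two-sided). Nephron progenitor, podocyte, proximal tubule, ureteric, stromal, endothelial and leukocyte markers were all detected, and no listed marker stood at 0 in any library. Libraries also differed in how FPKM ran with gene length. Per doubling of exon length the deviation of a gene from its mean ran from -0.103 in mutant replicate 1 to 0.0464 in mutant replicate 3 on the log2 scale, and from -0.0293 to 0.0385 in the controls. Integrin, laminin and linker genes are long: the median exon length of the 31 tested below was 7.14 kb. The part of length in the values that follow was not tested unless a value is given.

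Most of these genes stood slightly lower in mutant kidneys, but none passed the threshold of the limma test. Of the 42 genes, 31 reached 1 FPKM in 3 or more libraries and were tested; the other 11 stayed at 0.12 to 1.06 FPKM. At a limma adjusted p under 0.05 the count of changed genes was 0 of 31, where 1.53% of all 13466 tested genes were called. At an unadjusted p under 0.05, 8 of the 31 were lower and 0 higher, against 8.48% and 5.26% of all tested genes. Limma-voom on the recovered reads also called 0, and 1.85% of all genes. With limma array weights, which weight each library by its scatter, 3 of 31 passed (Itgb6, Itgb5 and Npnt, all lower) and 9.67% of all genes. The authors' deposited table, which uses DESeq2, has 3 of the 42 at an adjusted p under 0.05, all lower, Itgb6, Itgb5 and Itga1; 5.49% of all genes passed there, 3.74% lower. Fold changes here and below are differences of log2(FPKM + 1), mutants less controls. They were under 0 for 23 of the 31 (74.2%, against 50.8% of all tested genes), with a median of -0.19 against 0.00 for all. Of the 1700 tested genes with at least 7 kb of exons, a length chosen after the values were seen, 62.6% were under 0 with a median of -0.03, and 14 of the 18 members of that length were, with a median of -0.22. Of shorter genes 49.1% were under 0, and 9 of the 13 shorter members. These shares describe a chosen list that shares libraries and are no test. Without control replicate 1, 19 of 31 were under 0 and the median was -0.05; without mutant replicate 1 the values were 21 and -0.09. With each library's trend on gene length removed, a setting added after the data were seen, they were 23 and -0.16.

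**Figure D1:**
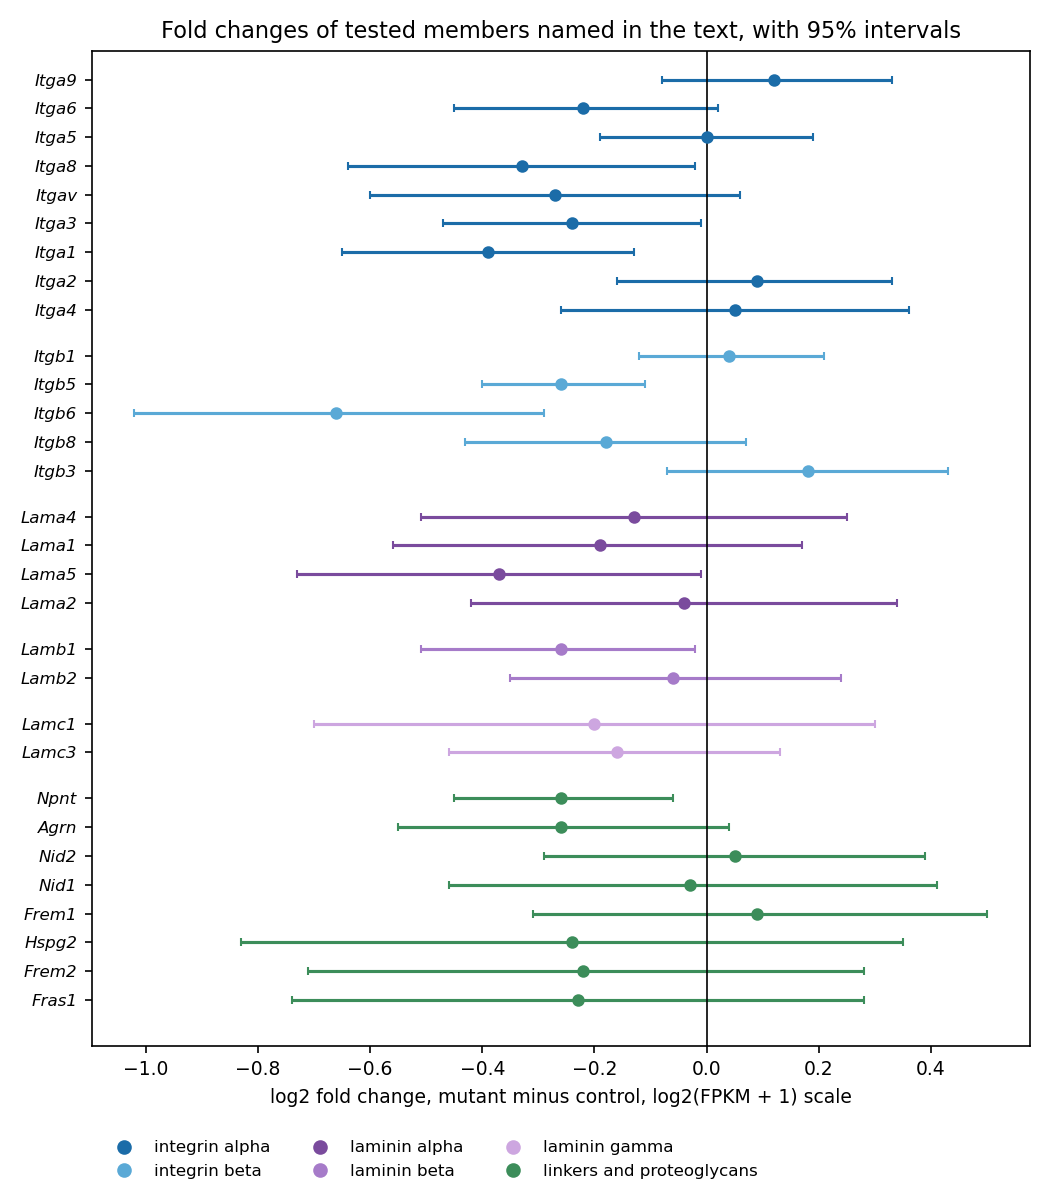
Log2 fold changes (horizontal axis, mutant minus control, log2(FPKM + 1) scale) of the tested genes named in the text, grouped by role and ordered by mean FPKM, with 95% intervals from limma as bars. Itgb6 lies farthest from 0 at -0.66, and most intervals of the laminins and linkers include 0.

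Among the beta subunits, Itgb6 showed the largest difference of all 31 genes. Itgb6 pairs with Itgav on epithelial cells, where the pair activates latent TGF-beta. Its FPKM, by replicate number from 1 upward here and below, were 4.03, 4.30 and 4.09 for controls and 2.78, 2.82, 1.35 and 2.34 for mutants. All mutants lay below all controls, mutant replicate 3 lowest of all, on 441 to 2005 reads a library. The mutant mean was 43.9% lower (log2 fold change -0.66, SE 0.161, 95% interval -1.02 to -0.29; limma adjusted p = 0.0907). The authors' deposited table gives -0.83 (adjusted p = 0.00451). Without mutant replicate 3 the fold change was -0.50 and passed the threshold (limma adjusted p = 0.0494, where 0.926% of all genes were called). Proximal tubule markers were lower too: all 11 tested of 12 listed had a fold change below 0. Limma called 2 of them lower, where 1.05% of all tested genes were called lower. Their summed FPKM ran from 150 to 190 in controls and from 44.8 to 115 in mutants. Ureteric markers, also epithelial, were higher in sum, at 294 to 314 FPKM in controls and 331 to 384 FPKM in mutants. They were mixed gene by gene, with 7 of 14 below 0 in fold change. Calb1 rose most in FPKM, from a mean of 43.1 in controls to 71.6 in mutants, while Aqp2 fell from 3.63 to 1.60. The part of either list in the Itgb6 difference was not tested. In RNA from whole kidneys, fewer cells of a type and less RNA per cell cannot be told apart.

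Itgb5, a partner of Itgav that binds vitronectin, stood nearly level within the mutants. Its FPKM were 37.4, 35.8 and 41.0 in the controls and 32.3, 31.7, 31.9 and 30.7 in the mutants, so the groups did not overlap. The difference was small in size (log2 fold change -0.26, SE 0.0636, 95% interval -0.40 to -0.11; limma adjusted p = 0.0931). It passed in the authors' deposited table (-0.26, adjusted p = 0.0149) and with the length trend removed (-0.26, limma adjusted p = 0.0473, where 3.13% of all genes were called).

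Itgb1, the common partner of most alpha subunits here, was by far the most abundant member. Control FPKM were 176, 168 and 159 and mutant FPKM 160, 181, 169 and 180, with overlapping groups. Its fold change of 0.04 had a 95% interval of -0.12 to 0.21. Itgb8, another partner of Itgav that activates latent TGF-beta, was at 1.6, 1.47 and 1.11 FPKM in controls, against 0.846, 1.28, 1.18 and 1.13 FPKM in mutants. Itgb3, the subunit of platelets and osteoclasts that also pairs with Itgav, was at 0.734 to 1.15 FPKM in controls, against 0.931 to 1.35 FPKM in mutants. Neither passed (limma adjusted p = 0.562 and 0.574). By group mean the order of levels was Itgb1, Itgb5 and Itgb6 in both groups. Itgb8 lay above Itgb3 in all controls, while among mutants the pair had nearly the same mean (1.11 and 1.13 FPKM) and overlapped. In mutant replicate 3 Itgb6 and Itgb3 both stood at 1.35 FPKM. Itgb4, the hemidesmosome subunit, and the leukocyte subunits Itgb2 and Itgb7 were at 0.120 to 1.06 FPKM and were not tested.

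**Figure D2:**
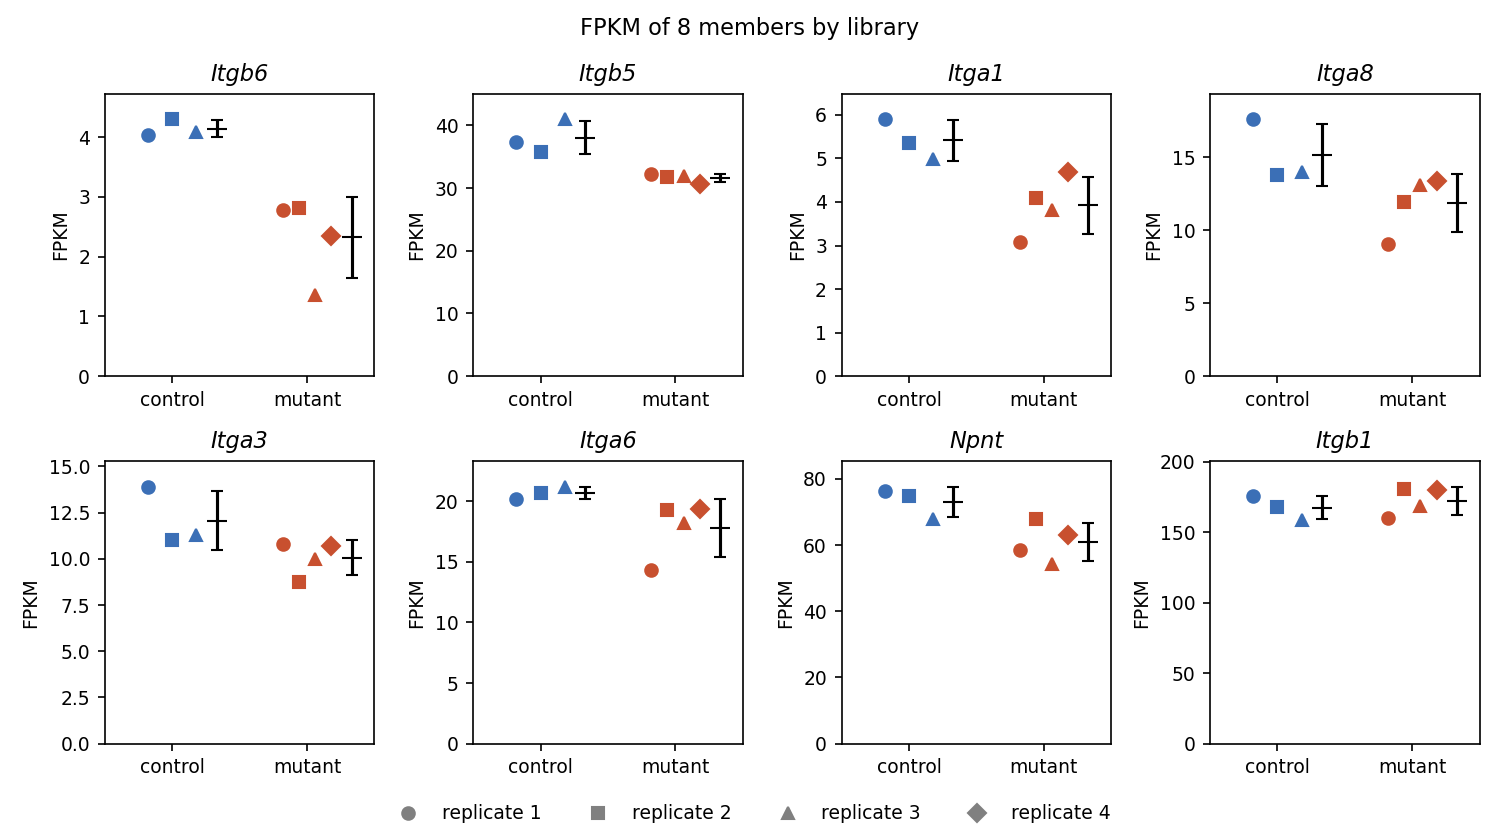
FPKM (vertical axes, from 0) of 8 genes in the 3 control (blue) and 4 mutant (red) libraries; symbols give the replicate number and black bars the mean and SD. All 4 mutants lie below all 3 controls for Itgb6, Itgb5, Itga1, Itga8, Itga3 and Itga6, while the groups overlap for Npnt and Itgb1.

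Among the alpha subunits, Itga1 showed the largest difference. Itga1 pairs with Itgb1 as a receptor for collagens, type IV included. It was at 5.90, 5.36 and 4.98 FPKM in controls, against 3.09, 4.09, 3.81 and 4.69 FPKM in mutants, with no overlap. The fold change was -0.39 (SE 0.115, 95% interval -0.65 to -0.13; limma adjusted p = 0.148), and the authors' deposited table gives -0.47 (adjusted p = 0.0228). Its exons measure 13.0 kb, and 685 of these bases are shared with the model Gm49395 on the same strand, so some of its reads are uncertain. With the length trend removed its fold change was -0.34 (limma adjusted p = 0.0767). Mutant replicate 1, the library with the steepest loss along length, was the lowest for Itga1.

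The start regions of Itgb6, Itgb5 and Itga1, the 3 genes that the deposited test calls, are shown because these are the members whose RNA levels differed most clearly. Each is the 250 bases before a start site in RefSeq on GRCm38.p6, not the build of the data, 5′ to 3′ on the gene's strand. For Itgb6 (chr2:60722604-60722853, minus strand) the start farther upstream of 2 in RefSeq is given; Itgb5 is at chr16:33829415-33829664 (plus strand) and Itga1 at chr13:115101965-115102214 (minus strand). Capitals mark matches, on either strand, to the 4 motifs searched.
Itgb6: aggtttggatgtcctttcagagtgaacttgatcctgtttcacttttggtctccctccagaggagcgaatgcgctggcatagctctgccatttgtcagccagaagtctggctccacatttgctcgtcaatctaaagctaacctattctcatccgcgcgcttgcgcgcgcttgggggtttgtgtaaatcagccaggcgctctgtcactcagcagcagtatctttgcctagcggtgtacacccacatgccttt
Itgb5: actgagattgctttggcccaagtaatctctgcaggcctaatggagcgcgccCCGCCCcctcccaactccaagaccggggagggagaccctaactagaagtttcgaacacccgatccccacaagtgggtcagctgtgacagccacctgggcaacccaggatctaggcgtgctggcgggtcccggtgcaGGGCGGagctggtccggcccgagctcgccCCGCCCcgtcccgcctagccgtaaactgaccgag
Itga1: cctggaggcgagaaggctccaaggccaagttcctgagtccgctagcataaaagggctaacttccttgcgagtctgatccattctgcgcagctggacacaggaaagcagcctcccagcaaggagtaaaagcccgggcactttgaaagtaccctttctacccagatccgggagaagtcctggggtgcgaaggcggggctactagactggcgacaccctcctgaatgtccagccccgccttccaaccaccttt
The motifs were the Iroquois half-site pair ACANNTGT, the TATA box TATAAA, the GC box GGGCGG and the CCAAT box CCAAT. Itgb5 held 3 GC boxes, at 199, 63 and 34 bases before the start, and the Itgb6 and Itga1 windows held no match. Of the 42 genes 28 matched the RefSeq promoter table, with 34 start regions. Those of Itga2b, Itga3 and Itgb7 held ACANNTGT (8.82% of 34, against 6.31% of 32851 start regions of the same length in all). GC boxes were in 41.2% (32.7% of all), CCAAT boxes in 14.7% (33.8%) and TATAAA in 0 of 34 (12.4%). The member start regions had a median GC content of 60.2%, against 52.4% for all. A match is a description of letters and not a binding site.

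Itga8, Itga3 and Itga6 also had all 4 mutants below all 3 controls, by narrow margins, and none passed. In all, the groups were apart for 6 of the 31 tested genes, all lower in mutants, where 8.61% of all tested genes were lower and 5.93% higher in this way. Itga8, the mesenchymal receptor for nephronectin, was at 17.6, 13.8 and 14 FPKM in controls, against 9.03, 11.9, 13.1 and 13.4 FPKM in mutants. The gap between the lowest control and the highest mutant was thus small beside the spread within groups. Its fold change was -0.33 (SE 0.137, 95% interval -0.64 to -0.02; limma adjusted p = 0.317), and -0.22 without mutant replicate 1. Its exons share 372 bases with a gene on the opposite strand, and whether the counting used strand is not given. Exons of Itgav, Itga4, Lama2, Lamc3, Nid1, Nid2 and Fras1 likewise overlap a gene on the opposite strand. The nephron progenitor list, which holds Itga8, was lower in sum, at 244 to 251 FPKM in controls and 178 to 200 FPKM in mutants. Fold changes were below 0 for 7 of its 10 members and above 0 for Crym, Dapl1 and Osr1. Limma called 3 lower and 1 higher, where 1.05% of all tested genes were called lower and 0.475% higher. Uncx and Cited1 fell most in FPKM, from means of 34.1 and 23.8 in controls to 7.99 and 5.25 in mutants. The part of these changes in the Itga8 value was not tested.

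Itga3, the laminin receptor of podocytes and the ureteric tree, was at 13.9, 11 and 11.3 FPKM in controls, against 10.8, 8.74, 10 and 10.7 FPKM in mutants. Its fold change was -0.24 (SE 0.1; limma adjusted p = 0.327), with control replicate 1 well above the other libraries, and -0.14 without that library. Of the podocyte markers, 9 of 11 tested of 12 listed lay below 0, 4 called lower by limma, against 1.05% of all tested genes. Their summed FPKM ran from 322 to 341 in controls and from 260 to 299 in mutants. Of the 14 ureteric markers, 7 lay below 0, and limma called 1 higher and 0 lower, against 0.475% and 1.05% of all tested genes. Their sum was higher in mutants, as given with Itgb6 above. The part of either list was not tested. Itga6, which pairs with Itgb1 or Itgb4 as an epithelial laminin receptor, was at 20.2, 20.7 and 21.2 FPKM in controls, against 14.3, 19.3, 18.2 and 19.4 FPKM in mutants. The controls were tight and mutant replicate 1 alone lay far below (fold change -0.22, SE 0.103; limma adjusted p = 0.412). Without that library the fold change was -0.12.

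The remaining tested alpha subunits showed overlapping groups. Itga9, which binds tenascin and the EDA form of fibronectin, was the most abundant alpha subunit at 21.9 to 26.9 FPKM in controls, against 23.8 to 28.6 FPKM in mutants (fold change 0.12, 95% interval -0.08 to 0.33). The fibronectin receptor Itga5 was at 17.2 ± 1.65 FPKM (SD, n = 3) and 17.2 ± 1.23 FPKM (SD, n = 4), with a fold change of 0.00 and a 95% interval of -0.19 to 0.19. Itgav, the shared partner of Itgb3, Itgb5, Itgb6 and Itgb8, was at 16.5, 10.8 and 10.8 FPKM in controls, against 9.67, 9.10, 10.9 and 11.2 FPKM in mutants. The fold change was -0.27 (SE 0.145), and control replicate 1 lay far above the rest while the other controls lay among the mutants. Without that library the fold change was -0.08. The collagen receptor Itga2 and the leukocyte and mesenchymal subunit Itga4 were at 1.16 to 2.64 FPKM over all 7 libraries, with fold changes of 0.09 and 0.05. Order by level ran Itga9, Itga6, Itga5, Itga8, Itgav and Itga3 over all libraries, then Itga1, and neighbours from Itga6 to Itga3 overlapped between libraries.

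The 9 untested integrins include those that mark other cells. Itgal, Itgam, Itgb2 and Itgb7 of leukocytes and Itga2b of megakaryocytes were between 0.120 and 0.891 FPKM. Itgb2 was at 0.459, 0.361 and 0.120 FPKM in controls, against 0.529, 0.497, 0.420 and 0.536 FPKM in mutants, where the value of control replicate 3 rests on 15 reads. The leukocyte markers were above 0 in fold change for 14 of 14, with summed FPKM of 49.1 to 50.4 in controls and 54.9 to 61.7 in mutants. By limma 0 passed, and 0 in the authors' deposited table. At an unadjusted p under 0.05, 6 were higher, against 5.26% of all tested genes. Of 12 megakaryocyte markers 4 were listed in the table, with Pf4 the single one tested, and summed FPKM of 6.65 to 7.62 in controls and 8.80 to 10.9 in mutants. Most of that sum was Pf4, at means of 5.41 FPKM in controls and 7.79 FPKM in mutants. The other markers moved little, with means of 0.796 and 0.897 FPKM for Ppbp, 0.581 and 0.588 FPKM for Tubb1, and 0.392 and 0.411 FPKM for Vwf. Pf4, a platelet chemokine, lay higher in all mutants than in all controls, short of the threshold in limma (0.45, adjusted p = 0.0769) and past it in the authors' deposited table (0.53, adjusted p = 0.0414). The collagen receptors Itga10 and Itga11, the muscle laminin receptor Itga7 and Itgb4 were at 0.316 to 1.06 FPKM. Itgam shares 3450 bases of its 5.03 kb of exons with a gene model on the same strand, and Itga10 1739 of 5.05 kb. Some of the reads of both are thus uncertain.

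All 9 tested laminin chains had a fold change below 0, and none passed. Without control replicate 1, Lama2, Lamb2 and Lamc1 lay above 0, at 0.16, 0.01 and 0.02, Lama5 was at -0.21 in place of -0.37, Lama1 at -0.06 in place of -0.19 and Lamb1 at -0.17 in place of -0.26. Chains are given per length, so their FPKM can be set side by side. Among alpha chains, Lama4 of blood vessels and mesenchyme was the highest, at 22.2, 17.1 and 17.4 FPKM in controls, against 13.1, 17.6, 22.4 and 16.4 FPKM in mutants. The mutants spanned the whole range of the controls, and the fold change of -0.13 was -0.01 without control replicate 1 or without mutant replicate 1. Lama1, the chain of the earliest nephron and ureteric basement membranes, was at 10.6, 7.76 and 7.94 FPKM in controls, against 5.78, 6.73, 9.48 and 8.36 FPKM in mutants (fold change -0.19, SE 0.162). Lama5, the chain of maturing tubules and the glomerulus, had the largest difference of the laminins: 8.17, 5.63 and 5.63 FPKM in controls, against 3.60, 4.64, 5.92 and 4.94 FPKM in mutants. Mutant replicate 3 lay above 2 of the controls (fold change -0.37, SE 0.159, 95% interval -0.73 to -0.01; limma adjusted p = 0.346). Lama2 was at 0.828 to 1.96 FPKM over the 7 libraries, and Lama3, of skin-like epithelia, at 0.207 to 0.477 FPKM, was not tested.

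Lamb1, the beta chain of early basement membranes, was at 73.9, 56.6 and 64.4 FPKM in controls, against 51.9, 49.0, 62.2 and 52.2 FPKM in mutants. Here too mutant replicate 3 lay among the controls (fold change -0.26, SE 0.108; limma adjusted p = 0.312). Lamb2, which replaces Lamb1 in the mature glomerular basement membrane, was at 13.0, 10 and 12.5 FPKM in controls, against 10.2, 10.6, 14.4 and 10.3 FPKM in mutants (fold change -0.06, SE 0.130). Lamc1, the gamma chain of most laminins, was at 59.3, 37.4 and 37.9 FPKM in controls, against 31.1, 32.5, 50.3 and 41.5 FPKM in mutants, with spreads far larger than the fold change of -0.20 (SE 0.215). Lamb3 was at 0.248 to 0.413 FPKM and was not tested. Lamc3 was at 0.996 to 1.98 FPKM.

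Among the linkers, Npnt was the most abundant and the one with the smallest p. Npnt was at 76.4, 74.9 and 67.8 FPKM in controls, against 58.4, 67.9, 54.4 and 63.1 FPKM in mutants. Mutant replicate 2 reached the level of control replicate 3, and the other mutants lay below all controls. Its fold change was -0.26 (SE 0.0863, 95% interval -0.45 to -0.06; limma adjusted p = 0.202; adjusted p = 0.111 in the authors' deposited table). Ureteric markers, given with Itgb6 above, were higher in sum in mutants, though 7 of 14 had a fold change below 0. Their part in the Npnt value was not tested. The groups overlapped for the Fraser complex, which anchors Npnt. Fras1 was at 6.81, 4.47 and 3.98 FPKM in controls, against 2.68, 3.93, 5.74 and 4.49 FPKM in mutants, and Frem2 followed it with 4.51 to 6.86 FPKM and 2.93 to 6.30 FPKM. Frem1 was at 9.26 to 12.8 FPKM in controls, against 8.13 to 14.3 FPKM in mutants, with a fold change of 0.09 (SE 0.176). The heparan sulfate proteoglycans Agrn and Hspg2, agrin of glomerular and tubular membranes and perlecan of all of them, were at 43.4 to 62.5 FPKM against 39.7 to 51.3 FPKM, and 6.57 to 11.6 FPKM against 4.80 to 10.1 FPKM. The nidogens overlapped between groups: Nid1 had a fold change of -0.03 (95% interval -0.46 to 0.41) and Nid2 of 0.05 (-0.29 to 0.39). Without control replicate 1 these were 0.19 and 0.22, Agrn was at -0.12 in place of -0.26, Hspg2 at -0.01 in place of -0.24, Frem2 at -0.05 in place of -0.22 and Fras1 at -0.04 in place of -0.23.

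Laminins and linkers shared an order of libraries within each group. Control replicate 1 was the highest control for 16 of these 17 tested genes, and mutant replicate 3 the highest mutant for 16 of 17 (all but Npnt). Over all tested genes these libraries led their group for 31.5% and 25.3%. Mutant replicate 1 was the lowest mutant for 12 of 17, against 34.4% of all genes. The median deviation from the gene mean, on the log2(FPKM + 1) scale, was 0.37, -0.04 and -0.03 for controls by replicate number, and -0.27, -0.15, 0.27 and -0.03 for mutants. The 14 integrins kept closer together, at 0.13, 0.00 and -0.01 in the controls and -0.13, -0.02, -0.02 and 0.01 in the mutants. Genes with at least 7 kb of exons, whatever their kind, showed part of this pattern: control replicate 1 led the controls for 73.9% of the 1700 tested, mutant replicate 3 led the mutants for 56.4% and mutant replicate 1 was lowest for 85.8%. With the length trend removed, the laminins and linkers stood at 0.30, -0.03, -0.02, -0.11, -0.19, 0.11 and -0.07 in the same order of libraries. So the height of control replicate 1 stayed near its size and the spread between mutant replicates 1 and 3 shrank.

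**Figure D3:**
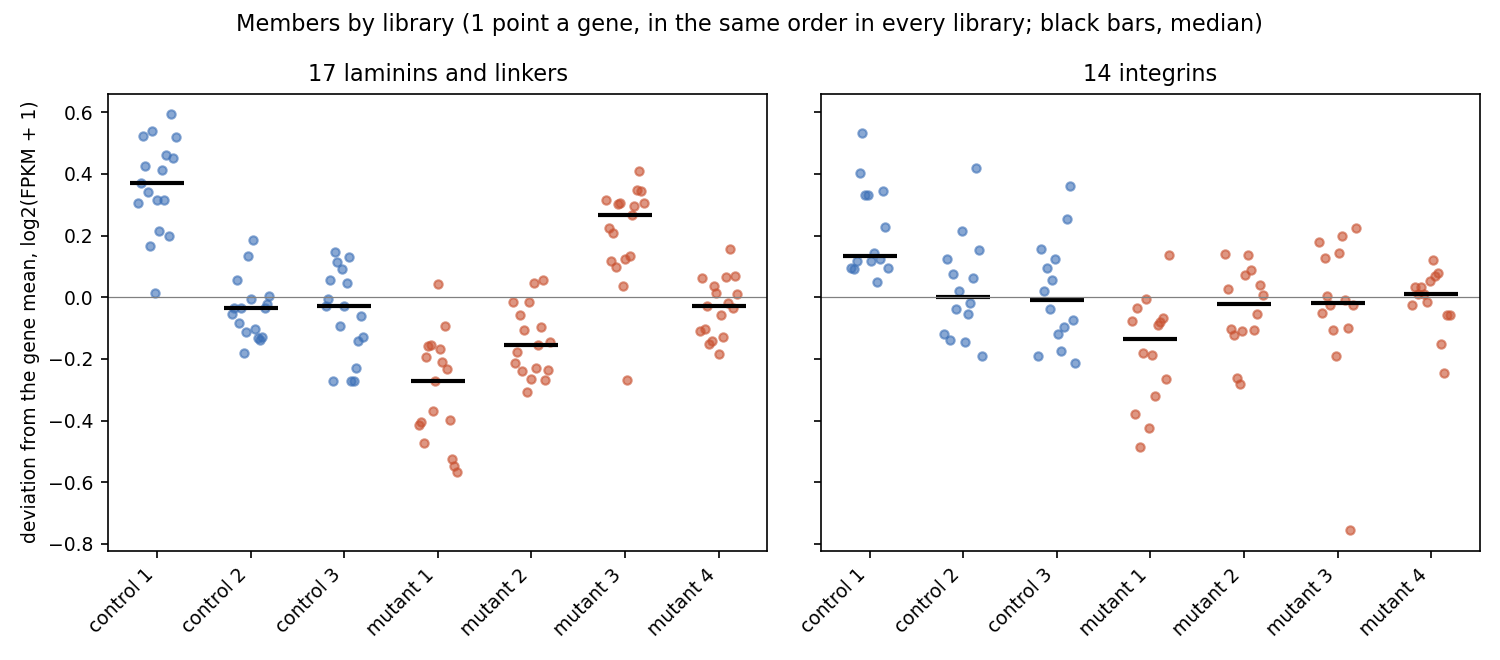
Deviation of each gene from its own mean (vertical axis, log2(FPKM + 1)) in each library for the 17 tested laminins and linkers (left) and 14 integrins (right); points are genes and black bars medians. On the left control replicate 1 and mutant replicate 3 lie high, at medians of 0.37 and 0.27, and mutant replicate 1 low at -0.27.

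Other values set control replicate 1 apart as well. Its skeletal muscle markers, of which 5 of 10 were listed in the table and none of these at 0, summed to 84.6 FPKM against 19.8 to 29.7 FPKM in the other 6 libraries. Its smooth muscle markers (10 of 10 listed) summed to 203 FPKM against 107 to 160 FPKM. Limma called 3 of 12 stromal markers higher, against 0.475% of all tested genes. Stromal markers summed to 491 to 675 FPKM in controls, against 678 to 871 FPKM in mutants. The sum was highest in mutant replicate 3 and, of the controls, in control replicate 1. Their part in the laminin and linker values was not tested. Without control replicate 1 the 17 laminins and linkers had a median fold change of -0.04, with 11 below 0, in place of -0.19 and 15.

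Shares within a family set aside a library swing that all its chains share alike, but not one that differs between chains. Lama5 made up 18.8%, 17.7% and 17.5% of the summed alpha chain FPKM in controls, against 15.2%, 15.3%, 14.9% and 15.8% in the mutants, although its own FPKM overlapped. Lama4 made up 51.1% to 54.2% in controls and 52.6% to 57.8% in mutants, and Lama1 24.4% to 24.7% and 22.1% to 26.8%. Lamb1 made up 83.5% to 84.8% of the beta chains in controls and 80.9% to 83.2% in mutants, with Lamb2 nearly all of the rest. Lamc1 made up 63.3% to 74.2% of the gamma chains in controls and 62.9% to 71.0% in mutants. Its share was highest in control replicate 1 and, of the mutants, in replicate 3, so here the swing remained. Among integrin beta subunits, Itgb1 made up 76.9% to 79.4% in controls and 80.5% to 83.1% in mutants, Itgb5 16.8% to 19.8% and 14.2% to 16.2%, and Itgb6 1.82% to 2.04% and 0.652% to 1.40%. Among integrin alpha subunits, Itga9 made up 20.3% to 21.7% in controls and 22.6% to 26.6% in mutants. Itga8 made up 12.9% to 13.8% and 9.67% to 12.3%, and Itga1 4.61% to 5.04% and 3.31% to 4.31%. Itga2 made up 1.86% to 2.01% and 2.02% to 2.37%. Each of these was without overlap between groups, while the shares of Itga6, Itga5, Itgav and Itga3 overlapped. A share can move because another chain moves, the family was chosen with results known, and no test was made of these shares.

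**Figure D4:**
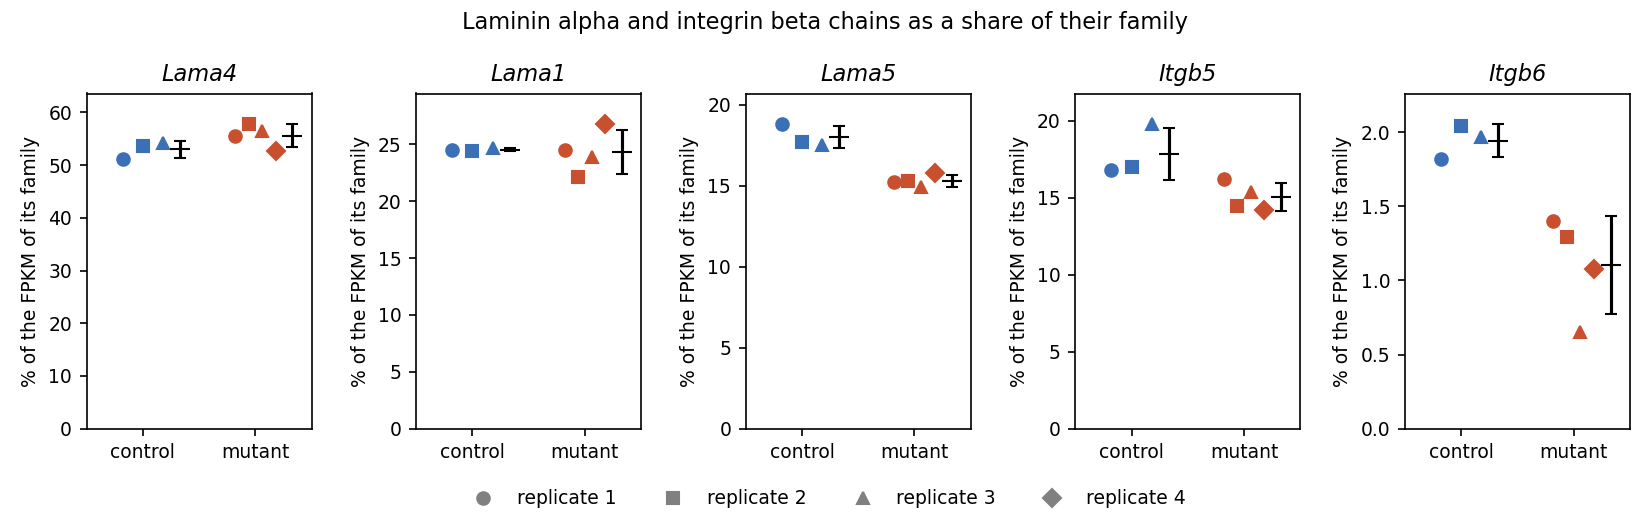
Share of the summed FPKM of its family (vertical axes, percent, from 0) for 3 laminin alpha chains and 2 integrin beta subunits in the 3 control (blue) and 4 mutant (red) libraries; black bars give mean and SD. The shares of Lama5, Itgb5 and Itgb6 do not overlap between groups, and those of Lama4 and Lama1 do.

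No cytoplasmic partner of the integrins passed the threshold. Of 31 genes for talins, kindlins, the ILK complex, focal adhesion adaptors and tetraspanins, 29 were tested and 0 passed by limma, with 0 lower and 1 higher at an unadjusted p under 0.05, 0 by limma-voom and 0 in the authors' deposited table. Of all tested genes 8.48% were lower and 5.26% higher at that unadjusted p. The median fold change of these 29 was 0.00. The smallest p values were those of Rsu1, which binds the ILK complex (29.2 ± 4.18 FPKM in 3 controls and 35.1 ± 3.10 FPKM in 4 mutants, SD), and of the tetraspanin Cd81 (129 ± 4.23 and 146 ± 14.7 FPKM). Of 16 tested laminin receptors outside the integrin family and their partners, 0 passed by limma, with 3 lower and 1 higher at an unadjusted p under 0.05, 0 by limma-voom and 0 in the deposited table (median -0.02), set against the same 8.48% and 5.26%. The syndecan Sdc4 (50.2 ± 3.81 and 40.4 ± 4.93 FPKM) and the sarcoglycan Sgce (12.8 ± 0.651 and 15.1 ± 1.06 FPKM) had the smallest p values.

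For the 22 tested integrin ligands outside the list of 42, the median fold change was 0.11. At an unadjusted p under 0.05, 1 was lower and 4 higher, against 8.48% and 5.26% of all tested genes. After adjustment 1 fell by limma, where 1.05% of all tested genes were called lower. It was Spp1, osteopontin, a ligand of integrins with Itgav, at 4.51, 5.15 and 2.60 FPKM in controls, against 1.66, 0.960, 1.12 and 1.74 FPKM in mutants (log2 fold change -1.08, SE 0.197; limma adjusted p = 0.0434). Leaving out control replicate 1 or 2, or mutant replicate 2, 3 or 4, ended the call. Of all tested genes, these omissions called 0.0822% to 0.926%, against 1.53% with all libraries. Limma-voom called Spp1 too, where 1.85% of all genes were called. Spp1 stood at -1.58 in the authors' deposited table (adjusted p = 8.26e-06), where 3.74% of all genes were lower. The authors' deposited table, where 1.75% of all genes were higher, calls 3 more, all higher: Vcam1, Emilin1 and Tgfbi (limma log2 fold changes 0.29, 0.27 and 0.37), ligands of integrins with Itga4, Itga9 or Itgav. Spp1 is also a product of tubule cells, whose markers are given with Itgb6 above, and their part was not tested.

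Of 19 tested further basement membrane proteins 1 fell by limma (1.05% of all tested genes were called lower), with a median fold change of 0.00. At an unadjusted p under 0.05, 2 were lower and 2 higher, against 8.48% and 5.26% of all tested genes. Tinagl1, a matrix protein that binds laminins and integrins, was at 13.5, 13.7 and 13.5 FPKM in controls, against 11, 8.82, 7.72 and 8.25 FPKM in mutants (log2 fold change -0.56, SE 0.105; limma adjusted p = 0.0434). All controls lay close together above all mutants, and the call was lost in each omission of a library except that of mutant replicate 1. The omissions that lost it called 0.0822% to 0.926% of all tested genes. Limma-voom called Tinagl1 too, where 1.85% of all genes were called, and so did the authors' deposited test (-0.60, adjusted p = 0.000207). Its relative Tinag, of tubular basement membranes, stood at 7.56, 7.82 and 6.99 FPKM and at 5.29, 5.27, 2.77 and 4.23 FPKM, lower in the authors' deposited table (-0.76, adjusted p = 0.00978) and short of the threshold in limma (-0.68). Smoc2, a calcium-binding matrix protein, was higher in the authors' deposited table (0.44, adjusted p = 0.0036), at 18.5 ± 1.86 FPKM in controls, against 25.0 ± 2.36 FPKM in mutants. The deposited test called 3.74% of all genes lower and 1.75% higher. The main type IV collagen chains followed the laminins across libraries: Col4a1 was at 176, 130 and 148 FPKM in controls, against 124, 119, 155 and 133 FPKM in mutants, again highest in control replicate 1 and, of the mutants, in replicate 3.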

How the data were processed

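RNA from 7 libraries of whole E15.5 mouse kidneys was profiled, 3 control and 4 mutant, grouped by their titles. The submitters' processing notes name, as tools of the authors, STAR 2.6.0c, HTSeq 0.6.1p2, DESeq2, Trim Galore 0.5.0 and FastQC 0.11.5, with mm39 (GRCm39) as the build. Per the labels' protocols the library kit was directional. The strand setting and the gene lengths used are not given in the sources used here. The authors deposited 1 table with an FPKM value per library. Per the file headers it also holds the authors' DESeq2 columns: the mean of normalized counts (a signal scaled by size factors), the log2 fold change and its SE, the test statistic (a score), and the raw and adjusted p-value, absent for 14 genes. The authors' DESeq2 values were copied as deposited.

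Reads per library were recovered from the deposited mean counts, FPKM and a size factor per library; 100% of values came within 0.05 of a whole number. Exon lengths follow from the same values. Genes with at least 1 FPKM in at least 3 libraries (13466) were compared on log2(FPKM + 1) by limma tests (limma 3.58.1, R 4.3.3; trend and robust options on), and called at a Benjamini-Hochberg adjusted p under 0.05 over all of them. This scale understates the change of low genes. Irx3 was also compared by an exact permutation test. Values per library are given for those of the 42 called by the deposited test and for the most abundant of each role, except Itga9 and Agrn, given by range. In the 4 lists of partner genes they are given for genes called by limma. Where limma called none, the 2 of smallest p are given by mean and SD. Genes called there by the deposited test alone are given per library, by mean and SD or by fold change. Values per library of other genes, the type IV collagen and the per-library pattern were chosen after the values were seen. Genes and lists were chosen with earlier results of these data known. The settings tried are named in the closing section; the steps were tested on simulated data. Plots used Python 3.11.15 and matplotlib 3.10.9. Start regions are from RefSeq on GRCm38.p6, and overlapping genes from GENCODE M21; protein sequences were not used here. The values of 1 gene among the 42 are not reported here.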

Additional observations from a re-analysis of the deposited data

Results flagged for a closer look

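In the 4 mutant libraries 1 gene had a library far from the others, by Dixon's test at the 95% level: Lamb2 stood at 14.4 FPKM in mutant replicate 3 and at 10.2 to 10.6 FPKM in the other mutants. Groups of 4 were looked at for 44 genes, and chance flags about 1 in 20 such groups. Mutant replicate 3 was the highest mutant for most laminins and linkers, as given above.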

How the results depend on the processing

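The count of changed genes among the 31 was 0 in the main comparison and 0 under another size factor, no low-value filter, a filter of 5 FPKM, a pseudocount of 0.1, quantile normalization, limma without its trend and robust steps, and limma-voom. It was 1 with the length trend removed (chosen after the data were seen; Itgb5), 3 with limma array weights (Itgb6, Itgb5 and Npnt, limma adjusted p = 0.00741, 0.0213 and 0.0491, where 9.67% of all genes were called), 3 in the deposited test, and 0 to 1 when libraries were left out in turn. Called genes in the 4 partner lists numbered 2, and 0 at 5 FPKM or a pseudocount of 0.1, 1 with quantile normalization, 10 with array weights, 7 in the deposited test and 0 to 2 when libraries were left out. Of all genes, these settings called 0.638%, 0.809%, 1.29%, 9.67% and 5.49% in that order, and 0.0822% to 3.63% over the omissions. The Irx3 fold change of -1.16 ran from -1.24 to -1.02 over those omissions, and its limma call was lost without control replicate 1 (adjusted p = 0.086) or 2 (0.105). Without control replicate 1 or 2, limma called 0.105% and 0.0822% of all tested genes.

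Deviations from the group means correlated at -0.156 to 0.098 between same-numbered libraries over 3 pairs, and 1 of 3 controls correlated best with its own number. So few pairs cannot decide whether replicate numbers pair the libraries. With a replicate block the count was 0 among the 31, 0 in the partner lists, 2 of 13466 genes in all against 206, and Irx3 was at -1.24 (limma adjusted p = 0.0974).

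Of 549 recomputed values 21 turned direction, in 8 genes, none with an adjusted p under 0.05. Itga5 (0.00) was at -0.01 by limma-voom, 0.00 with the replicate block and in the deposited test, and -0.07 to 0.06 over omissions of single libraries. Itga4 ran from -0.02 to 0.16 over them. With array weights Lama2 was at 0.00 and Nid1 at 0.04. Over the same omissions Lama2 ran from -0.19 to 0.16, Lamb2 from -0.17 to 0.01, Lamc1 from -0.33 to 0.02, Nid1 from -0.17 to 0.19, Nid2 from -0.07 to 0.22 and Frem1 from -0.01 to 0.24. The causes were not tested. Limits: 3 against 4 libraries, 178 to 47978 reads per tested gene and library, and SEs of 0.0636 to 0.253, so the small differences here were not detectable for most genes.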
